A study of Homo sapiens with 4 samples.

Results

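The genes described here are the 6 members named C/EBP (CEBPA, CEBPB, CEBPD, CEBPE, CEBPG and CEBPZ) and the transcriptional repressor genes NFIL3 and BCL6. They were chosen by gene symbol in the probe annotation, which gave 1 probe set for each of the 8, out of 18417 genes that have a probe set of their own. The arrays held labelled total RNA of human U266 cells, a multiple myeloma line, and K562 cells, a line from chronic myeloid leukaemia with the BCR-ABL1 fusion. Both lines are established cultures that were kept in RPMI-1640 with fetal bovine serum. The groups were U266 with 15 µM atovaquone for 2 h, U266 with vehicle (DMSO) for 2 h, K562 kept for 5 h in 20 µM atovaquone, and K562 kept for 5 h in vehicle (also DMSO). Atovaquone, a naphthoquinone drug used against malaria, inhibits the cytochrome bc1 complex (complex III) of mitochondria. Each group had 1 array, so no test was run, and every ratio below compares 1 array with 1 other. Dose and time both differed between the lines, so a difference between their responses cannot be told apart from a difference in exposure.

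C/EBP proteins are basic leucine zipper (bZIP) transcription factors that bind DNA as pairs and recognise related sites. C/EBPα, C/EBPβ, C/EBPδ and C/EBPε carry activation domains and act in myeloid differentiation and in inflammation, whereas C/EBPγ lacks one and works mainly by pairing with other bZIP proteins, ATF4 among them. CEBPZ shares the name but not the zipper: it encodes a nucleolar CCAAT-binding protein of the NOC1 type, whose yeast relative takes part in ribosome assembly. NFIL3 (E4BP4) is a bZIP repressor of D-box sites, which the clock-controlled PAR bZIP activators also bind. BCL6 is a BTB zinc finger repressor of germinal centre B cells whose DNA sites resemble those of STAT proteins, and its mRNA is normally low in plasma cells.

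The promoter stretches of the 4 members with the highest ratios in either line are shown because they hold letters close to the sites of the factors named above. RefSeq windows (build GRCh38.p14, 250 bases before to 50 after each annotated start) were searched for 7 of the 8 members, 11 windows in all. CEBPD was left out of this search, so nothing is said here about its promoter. Position 1 is the annotated start and bases before it carry a minus sign. Each stretch runs 5′ to 3′ on the strand of its gene.
CEBPB: ggaggggccggcgTGACGcagcggttgcta
CEBPG: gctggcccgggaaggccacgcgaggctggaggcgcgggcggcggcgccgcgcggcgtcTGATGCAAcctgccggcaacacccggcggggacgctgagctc
NFIL3: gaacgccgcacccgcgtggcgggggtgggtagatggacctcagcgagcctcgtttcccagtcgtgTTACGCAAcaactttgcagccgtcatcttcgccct
BCL6: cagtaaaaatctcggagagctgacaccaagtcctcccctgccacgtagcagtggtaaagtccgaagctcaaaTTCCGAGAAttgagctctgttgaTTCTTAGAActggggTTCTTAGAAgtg
The CEBPB stretch is chr20:50190760-50190789 on the plus strand, −70 to −41 from the downstream of the 2 annotated starts, and its capitals mark TGACG, part of a CRE. The CEBPG stretch is chr19:33374013-33374112 on the plus strand, −100 to −1 from the downstream of its 2 starts, with the capitals on TGATGNAA, the form of composite C/EBP-ATF sites. The NFIL3 stretch is chr9:91424627-91424726 on the minus strand, −100 to −1, with the capitals on a match to the C/EBP form TTGCNNAA on the other strand. The BCL6 stretch is chr3:187745447-187745568 on the minus strand, −100 to 22, with the capitals on TTCNNNGAA, the core shared by STAT and BCL6 sites.

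In all, 8 motifs were searched on both strands. BCL6 held 4 matches to TTCNNNGAA in 1 window, at −28 to −20, −5 to 4, 11 to 19 and 37 to 45. At least 1 match occurred in 7.66% of 35116 RefSeq windows of the same length, and at least 4 in 0.0199% of them (7 windows). The same BCL6 window held TGATGCAA at 24 to 31 and the heat shock form GAANNTTC (6.77% of windows) at 32 to 39, which overlaps the last TTCNNNGAA. TGATGNAA occurred in 3.62% of all windows and, among the members searched, in that BCL6 window and in the CEBPG window, at −42 to −35. The form TTGCNNAA (10.5%) occurred in NFIL3 alone among the members searched, at −35 to −28. TGACG (24.6%) was found in a window each of CEBPB, CEBPZ and NFIL3, and CCAAT (34.6%) in windows of CEBPB, CEBPG and NFIL3. CEBPE held a TTCNNNGAA match at −242 to −234. The full CRE TGACGTCA (1.85%), of which TGACG is part, and the D-box form TTANNTAA (5.63%) had 0 matches in the 11 windows, and CEBPA had no match to any of the 8. These are matches of letters and not evidence of binding.

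The values are the deposited intensities, on a linear scale. A floor was set on each array at the 40th percentile of annotated probe sets, at intensities of 324 for U266 atovaquone, 331 for U266 vehicle, 306 for K562 atovaquone and 305 for K562 vehicle. Genes that reached the floor on each array of a pair are called measured, and those under it on 1 array have only a bound. Ratios are on the log2 scale and centred on the median of measured probe sets. The only spread available is that between 2 probe sets of the same gene, whose log2 ratios differed with an SD of 0.15 in U266 (399 gene pairs of probe sets), 0.16 in K562 (417) and 0.51 between the vehicle arrays (356). It leaves out any spread between cultures. The lines carried their markers: of 11 plasma cell markers that reached the floor in vehicle-treated cells of either line, 10 were higher in U266 by 2-fold or more, and of 9 erythroid and megakaryocytic markers 7 were higher in K562 by as much. Of 11 granulocyte and monocyte markers, 3 were above the floor on the U266 vehicle array and 6 on the K562 vehicle array, and of 6 germinal centre B cell markers 0 and 1. Of 10 T cell, fibroblast and epithelial markers, 3 and 6 were above it, and 4 of the erythroid and megakaryocytic markers were above it in vehicle-treated U266. A value above the floor is therefore no sign of a cell type by itself. Any marker differences between arrays of bulk RNA cannot separate more cells of a type from more RNA per cell.

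**Figure D1:**
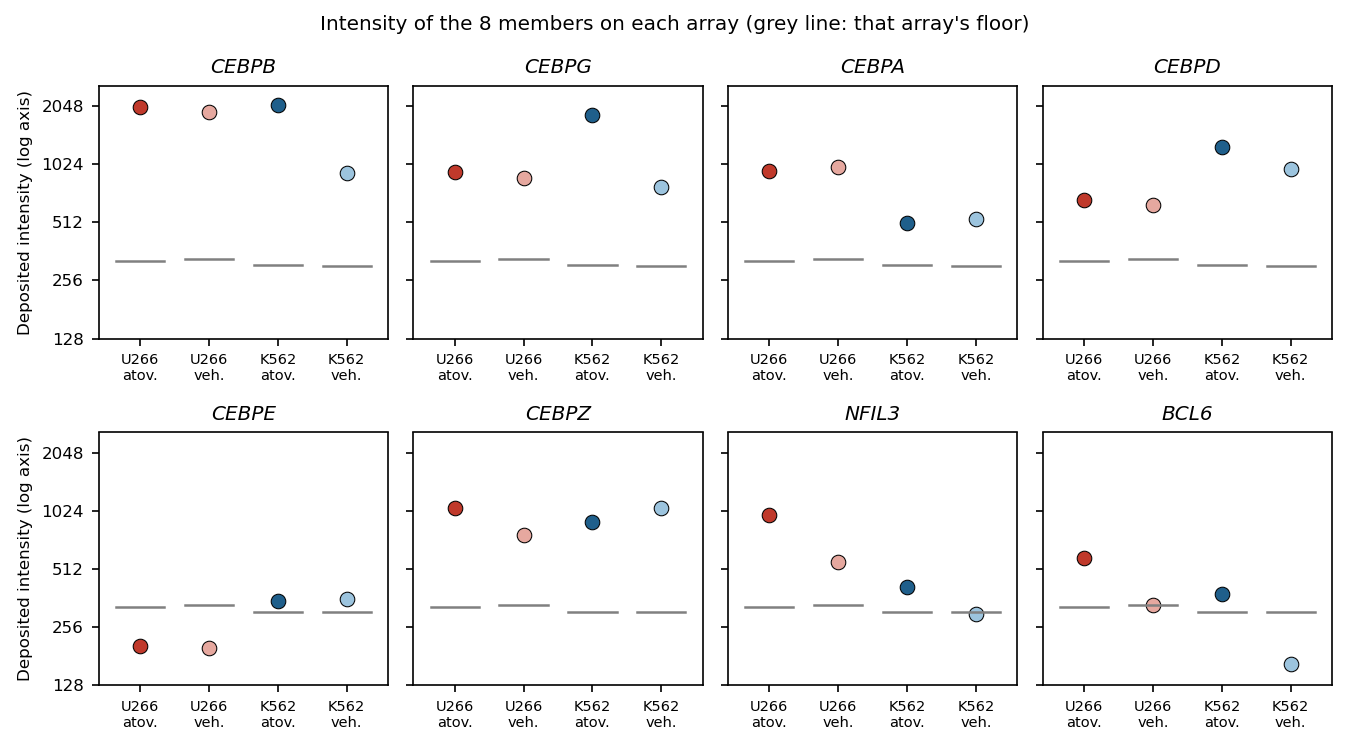
Deposited intensity (log axis) of the 8 genes on each of the 4 arrays, 1 point per array, with a grey line at that array's floor. CEBPB and CEBPG stand high on the K562 atovaquone array against the K562 vehicle array, and NFIL3 and BCL6 are higher with atovaquone in either line, with K562 vehicle values of 297 and 165 under the floor.

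In K562, 2 members were at least 2-fold higher with atovaquone, CEBPG and CEBPB, and 0 were at least 1.5-fold lower. Over all 10756 genes measured in K562, 0.26% were at least 2-fold higher and 0.13% at least 2-fold lower, while 1.42% were at least 1.5-fold higher and 0.697% at least 1.5-fold lower. Of the 6 measured members 3 lay above 0, and their median log2 ratio was 0.18, beside −0.0057 over all measured genes.

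CEBPG, the partner subunit without an activation domain, had an intensity of 1846 in atovaquone-treated K562, against 776.6 in vehicle-treated K562. That is 2.38-fold, or 1.25 on the log2 scale, the 21st highest ratio of the measured genes. In U266 it had 929 with atovaquone and 871 with vehicle, a log2 ratio of 0.10. The U266 arrays and the K562 vehicle array thus lay between 776.6 and 929, and the K562 atovaquone array stood alone above them. The CEBPG window shown above is the one with TGATGCAA.

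CEBPB encodes C/EBPβ (NF-IL6), the C/EBP member best known for its response to IL-6. Its intensity was 2068 in atovaquone-treated K562, against 917 in vehicle-treated K562. The ratio was 2.26-fold, or 1.18 in log2, ranking 22nd. In U266 the atovaquone array had 2015 and the vehicle array 1911, a log2 ratio of 0.09, inside the spread between probe sets. Here K562 vehicle was the array that stood apart, since the other 3 lay between 1911 and 2068. An annotated antisense transcript, CEBPB-AS1, overlaps CEBPB and has no probe set of its own here, so whether it adds to this signal was not tested.

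CEBPD, which encodes the acute phase regulator C/EBPδ, had 1252 in atovaquone-treated K562, against 968 in vehicle-treated K562, a ratio of 1.30-fold and 0.38 in log2. In U266 it had 669 with atovaquone and 629 with vehicle, and a log2 ratio of 0.10. Both K562 arrays were above both U266 arrays. CEBPA, the regulator of granulocyte commitment, differed little with drug: 944 with atovaquone and 985 with vehicle in U266, and 509 with atovaquone and 535 with vehicle in K562. Its log2 ratios of −0.05 and −0.07 were smaller than the spread between probe sets. CEBPG is the next protein-coding gene to CEBPA in the RefSeq order of chromosome 19, and its K562 ratio of 1.25 stands beside −0.07 for CEBPA. CEBPA-DT, the noncoding gene beside CEBPA, was under the floor on all 4 arrays.

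CEBPE, which acts late in granulocyte maturation, was under the floor in U266, with 205 with atovaquone and 200.2 with vehicle. In K562 it lay just above the floor, with 350.1 with atovaquone and 357 with vehicle, and its log2 ratio was −0.02.

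In U266 the members at least 1.5-fold higher with atovaquone were BCL6 and NFIL3, and 0 were at least 1.5-fold lower. Over the 10731 genes measured in U266, 0.857% were at least 1.5-fold higher and 0.0932% at least 1.5-fold lower. No member reached 2-fold in U266, where 0.326% of all measured genes were at least 2-fold higher and 0% lower. Of the 7 measured members 6 lay above 0, with a median of 0.10 beside −0.00012 over all measured genes.

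NFIL3 had an intensity of 969 in atovaquone-treated U266, against 555 in vehicle-treated U266. This is 1.76-fold, 0.81 in log2, and ranked 54th. In K562 it had 411 with atovaquone and 297 with vehicle, the vehicle value being 0.973 of the floor, so that the ratio was at least 1.35-fold and 1.40-fold without a floor. Within each line the atovaquone array was the higher, and both U266 arrays lay above both K562 arrays.

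BCL6 had an intensity of 582 in atovaquone-treated U266, against 334 in vehicle-treated U266. The ratio was also 1.76-fold, 0.81 in log2, ranking 53rd. The vehicle value stood only 1.01 times above the floor, so this ratio starts from the limit of what was counted as measured. In K562 BCL6 had 378 with atovaquone and 165 with vehicle, which was 0.541 of the floor. The bound there was at least 1.24-fold, while the same arrays without a floor gave 2.31-fold. Under a floor at the 60th percentile NFIL3 in U266 had a lower bound of 0.53 in log2 and BCL6 had no ratio, which left 0 members at least 1.5-fold higher in that line.

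CEBPZ, the nucleolar member, went in opposite directions in the lines. It had 1063 with atovaquone and 762 with vehicle in U266, 1.41-fold and 0.49 in log2, the 122nd highest ratio. In K562 the atovaquone array had 890 and the vehicle array 1051, a log2 ratio of −0.24, the 1185th lowest of 10756 measured genes. The 2.5th percentile of those genes was −0.42. Either value is beyond the spread between probe sets, and neither reaches 1.5-fold. NDUFAF7, the gene next to CEBPZ, had log2 ratios of 0.0024 and −0.07. CEBPZOS overlaps CEBPZ and has no probe set of its own here.

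**Figure D2:**
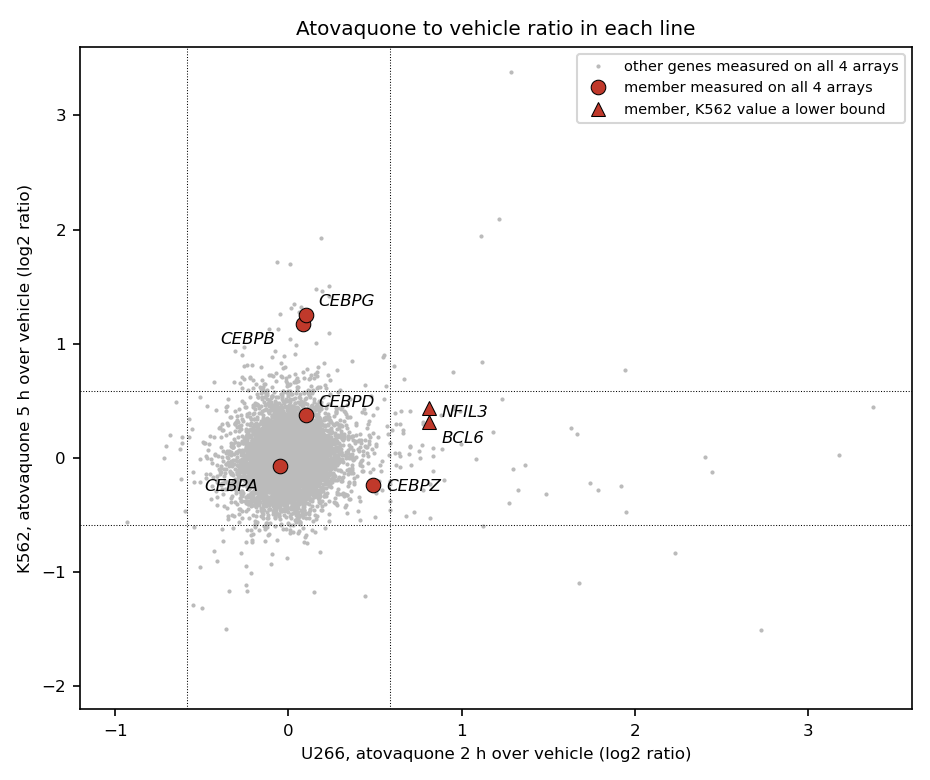
Log2 ratio of atovaquone to vehicle in U266 (x axis) and in K562 (y axis) for genes measured on all 4 arrays (grey) and for 7 members (red; triangles have only a lower bound in K562), with dotted lines at 1.5-fold. CEBPB and CEBPG lie high on the K562 axis near 0 in U266, and NFIL3 and BCL6 lie at 0.81 on the U266 axis. CEBPE is not drawn because it was under the floor in U266.

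The vehicle arrays give the level of each line in DMSO, at 2 h in U266 and at 5 h in K562. A difference between the lines here cannot be told apart from a difference in that time. Of 5 members measured on both, CEBPB and CEBPA were higher in U266 by 1.5-fold or more, and CEBPD was higher in K562 by as much. Such differences are common between the lines: of 9483 genes measured in vehicle-treated cells of both lines, 17.7% were higher in U266 by 1.5-fold or more and 16.2% lower. CEBPB was 2.12-fold higher in U266, with 1911 in U266 and 917 in K562, and no measured member was 2-fold lower. At that size 7.97% of all genes were higher in U266 and 6.97% lower. CEBPA was 1.87-fold higher, with 985 in U266 and 535 in K562. CEBPD had 629 in U266 and 968 in K562, a log2 difference of −0.60. These 3 differences exceeded the spread of 0.51 between probe sets.

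CEBPG and CEBPZ differed by less than that spread between the vehicle arrays, with log2 differences of 0.19 and −0.44. NFIL3 was at least 1.85-fold higher in U266, since K562 vehicle was under the floor. BCL6 had 334 in U266 and 165 in K562, a bound of at least 1.11-fold and 1.97-fold without a floor. CEBPE was above the floor in K562 and not in U266, and was at least 1.06-fold higher in K562. Without a floor its log2 difference was −0.87. On the atovaquone arrays the order of the lines for CEBPB was the other way round by a small margin, at 2015 in U266 and 2068 in K562.

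The genes with the most similar profile were found by Euclidean distance between log2 values centred on each gene's own mean over the 4 arrays, among 9222 genes measured on all of them. Only 5 members could be compared. The nearest to CEBPG were SLC6A9, a glycine transporter gene, at a distance of 0.24, GTPBP2, a GTP-binding protein gene, at 0.36, and ASNS, asparagine synthetase, at 0.36. SLC6A9 had log2 ratios of −0.05 in U266 and 1.26 in K562, and GTPBP2 had 0.04 and 0.99. The nearest to CEBPB were TRAK2, a trafficking adaptor gene, at 0.21, NEMP2 at 0.25 and the pseudogene SUGT1P1 at 0.25. For CEBPZ they were MRPL18, a mitochondrial ribosomal protein gene, at 0.14, KRTAP4-4 at 0.14 and TMEM187 at 0.16. MRPL18 had 0.58 in U266 and −0.23 in K562. For CEBPA they were MBD2, TSPAN3 and FOXL2, at distances of 0.02 to 0.03, and for CEBPD they were STK38L, MTIF3 and COMMD10, each at 0.07. A profile of 4 values can match by coincidence.

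Among 14 bZIP genes whose proteins can pair or compete with C/EBP, 12 were measured in each line. In U266, 4 were at least 1.5-fold higher and 0 lower, with a median log2 ratio of 0.06 over the measured genes and 0.25 with genes that have only a bound counted at it. Over the settings tried the median ranged from 0.05 to 0.26, with 6 of 14 genes called when there was no floor and 2 of 8 with the floor at the 60th percentile. FOSL2, an AP-1 subunit gene, had 1770 with atovaquone and 516 with vehicle, and JUND, another, had 1614 with atovaquone and 999 with vehicle. The other 2 were JUN and DDIT3, and the vehicle values of ATF3 and FOS were under the floor, with bounds of 2.57 and 2.10 in log2. In K562, 1 was at least 1.5-fold higher and 0 lower, with a median of 0.07. That gene was DDIT3, which encodes CHOP, a C/EBP partner that blocks binding to ordinary C/EBP sites. It had 3331 with atovaquone and 783 with vehicle in K562, and 2661 with atovaquone and 1153 with vehicle in U266. ATF4, the partner of C/EBPγ, stood at 0.36 in K562 and 0.10 in U266, and ATF5, a related bZIP gene, at 0.53 and −0.18. In K562 ATF3 had a bound of at least 1.84.

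Of 17 C/EBP regulators with a probe set, 14 were measured in U266 and 17 in K562. TRIB1, a pseudokinase that directs C/EBPα to degradation, was the 1 member at least 1.5-fold higher in U266, with 4368 with atovaquone and 2570 with vehicle. In K562 TRIB1 had 518 with atovaquone and 630 with vehicle, a log2 ratio of −0.28. K562 had 2 regulators at least 1.5-fold higher and 1 lower. The related pseudokinase gene TRIB3 had 3961 with atovaquone and 1208 with vehicle there, and ID2, an inhibitor of helix-loop-helix factors, had 522 with atovaquone and 315 with vehicle. ID1, of the same family, was the lower one, with 443 with atovaquone and 759.5 with vehicle. Under the floor at the 60th percentile ID1 had only an upper bound of −0.21 and ID2 had no ratio. PCBP2, the hnRNP E2 protein that limits translation of CEBPA mRNA in BCR-ABL1 cells, had 7660 with atovaquone and 7207 with vehicle in K562. List medians were 0.02 in U266 and −0.05 in K562.

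Genes that C/EBP proteins activate were mostly too dim to follow. Of 22 acute phase and inflammatory targets 3 were measured in U266, and CSF3, the G-CSF gene, was the 1 at least 1.5-fold higher, with 1322 with atovaquone and 398 with vehicle. IL6 stood at 0.46, which is also the median of the 3, and SAA2 at 0.37. Under the floor at the 60th percentile CSF3 had only a lower bound of 0.98, and over the settings tried that median ranged from 0.11 to 1.10. In K562 CSF3 alone was measured, at −0.22. Of 22 granulocyte and monocyte targets 7 were measured in U266, with 0 at 1.5-fold in either direction and a median of −0.09. In K562 11 were measured, and MS4A3, a gene of granulocyte precursors, was the 1 at least 1.5-fold higher, with 2699 with atovaquone and 1747 with vehicle. The summed intensity of the 11 granulocyte and monocyte markers was 9251 with atovaquone and 7895 with vehicle in K562, with 7 and 6 of them above the floor and MPO under it on both. The brightest of these markers were LYZ, with 3524 with atovaquone and 3113 with vehicle, and MS4A3, so the sum mostly follows them. Of the 5 markers measured in K562, 3 lay above 0, with a median log2 ratio of 0.02. The part of these markers in the CEBPB and CEBPG values was not tested.

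For NFIL3, the related list holds PAR bZIP and clock genes, many with D-box sites. In U266 15 of 17 were measured, 11 of them above 0, with a median of 0.16. BHLHE40, a helix-loop-helix repressor of the clock, was the 1 at least 1.5-fold higher, with 2458 with atovaquone and 1463 with vehicle. NR1D1, the REV-ERBα gene, stood at 0.46, and the PAR bZIP genes DBP and TEF at 0.07 and −0.0025. In K562 11 were measured, with a median of 0.0018 and 1 at least 1.5-fold higher, NR1D2, the REV-ERBβ gene, at 0.59, or 1.51-fold. That count was 0 after quantile normalisation, under the floor at the 60th percentile and with no floor and 100 added. NR1D1 in K562 was under the floor with atovaquone, at 293 against 507 with vehicle, with an upper bound of −0.72.

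For BCL6, 14 of 19 target genes were measured in U266, and MYC, which BCL6 represses in B cells, was the 1 at least 1.5-fold higher, at 0.84, with 683 with atovaquone and 385 with vehicle. That call was lost under the floor at the 60th percentile, where MYC had only a lower bound of 0.03. PRDM1, the plasma cell regulator that is a classical repression target of BCL6, had 3643 with atovaquone and 3012 with vehicle, a log2 ratio of 0.28. CD69, an activation marker, was under the floor in vehicle-treated U266 and had a bound of at least 0.95, and in K562 it had 618 with atovaquone and 423 with vehicle. The median of the targets was 0.07 in U266 and 0.02 in K562, where 0 of 12 reached 1.5-fold. Corepressors and regulators of BCL6, such as BCOR and the HDAC genes, had 0 of 17 measured members at 1.5-fold in U266 and 0 of 17 in K562, with medians of 0.05 and −0.02. The BTB zinc finger relatives likewise had 0 of 9 in U266 and 0 of 10 in K562, with medians of −0.02 and −0.14, and ZBTB7A had the lowest ratio among them in K562, at −0.50. The BTB median in K562 ranged from −0.15 to 0.00027 over the settings tried, and its sign changed at the upper end.

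The list of inputs to CEBPB, CEBPD, NFIL3 and BCL6 covered the IL-6 receptor and STAT pathway, FOXO factors, the glucocorticoid receptor and interferon regulatory factors. In U266 1 of 18 measured members was at least 1.5-fold higher and 0 lower, SOCS3, the feedback inhibitor of STAT3, with 920.3 with atovaquone and 377 with vehicle. Under the floor at the 60th percentile SOCS3 had only a lower bound of 0.46, and 0 of 13 members were called. In K562 0 of 16 reached 1.5-fold in either direction, and TSC22D3, a glucocorticoid and FOXO target, had a bound of at least 1.92. STAT3 itself had 3854 with atovaquone and 3806 with vehicle in U266. IL6R and IRF4 had U266 log2 ratios of −0.10 and 0.11. The medians were 0.05 in U266 and −0.06 in K562.

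The nucleolar partners of CEBPZ followed the direction of CEBPZ in each line. In U266 11 of 12 lay above 0, with a median of 0.09 and GNL2, a nucleolar GTPase gene, at the top with 0.26. In K562 0 of 12 lay above 0, with a median of −0.15 and RRS1, a ribosome assembly factor gene, at the bottom with −0.50. Over all measured genes 50% lay above 0 in U266 and 48.8% in K562. None of the 12 reached 1.5-fold in either line, and most single values were inside the spread between probe sets. Over the 9 settings the median stayed between 0.08 and 0.10 in U266 and between −0.16 and −0.14 in K562.

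**Figure D3:**
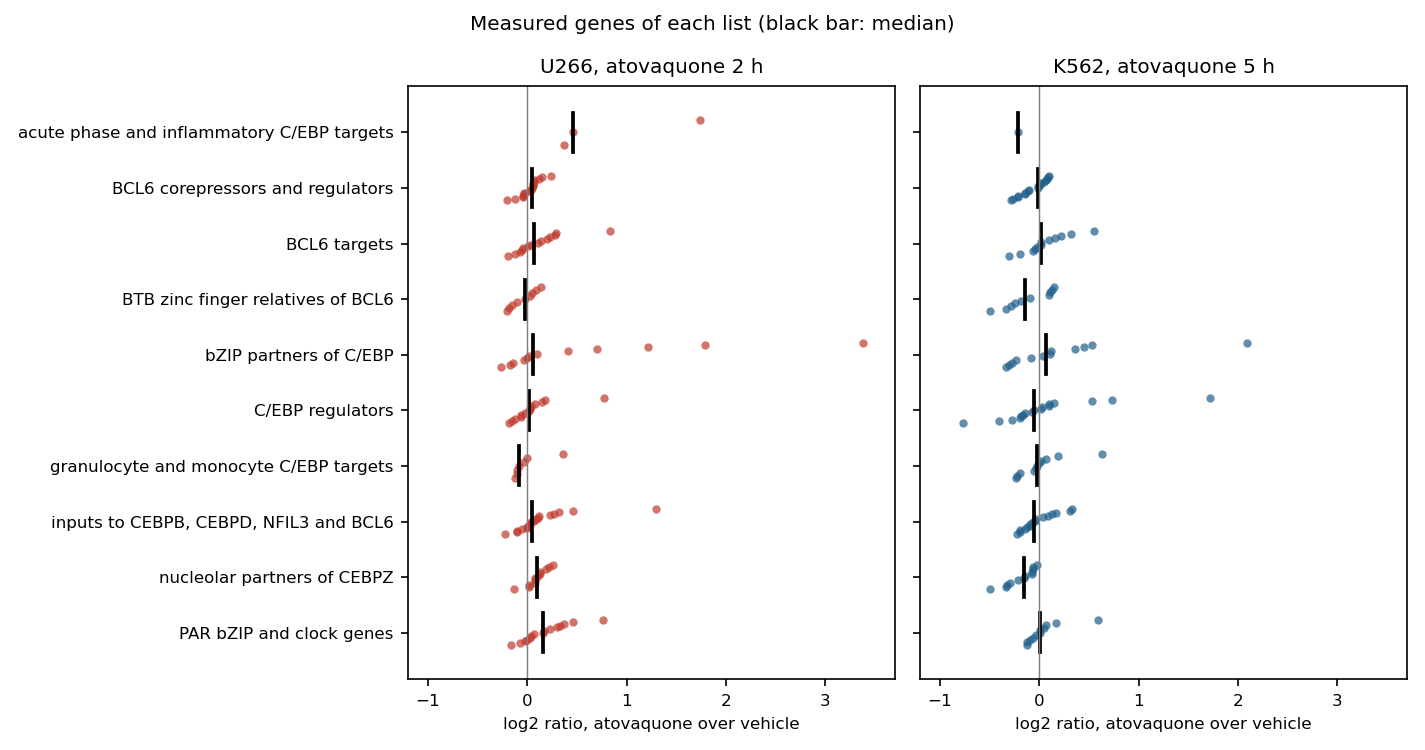
Log2 ratio of atovaquone to vehicle for the measured genes of 10 lists, U266 on the left and K562 on the right, 1 point per gene and a black bar at the list median. A few genes, such as JUN, FOSL2 and CSF3 in U266 and DDIT3 and TRIB3 in K562, lie far right. The medians with the largest size are those of the acute phase and inflammatory targets, 0.46 over 3 genes in U266 and −0.22 for 1 gene in K562.

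**Figure D4:**
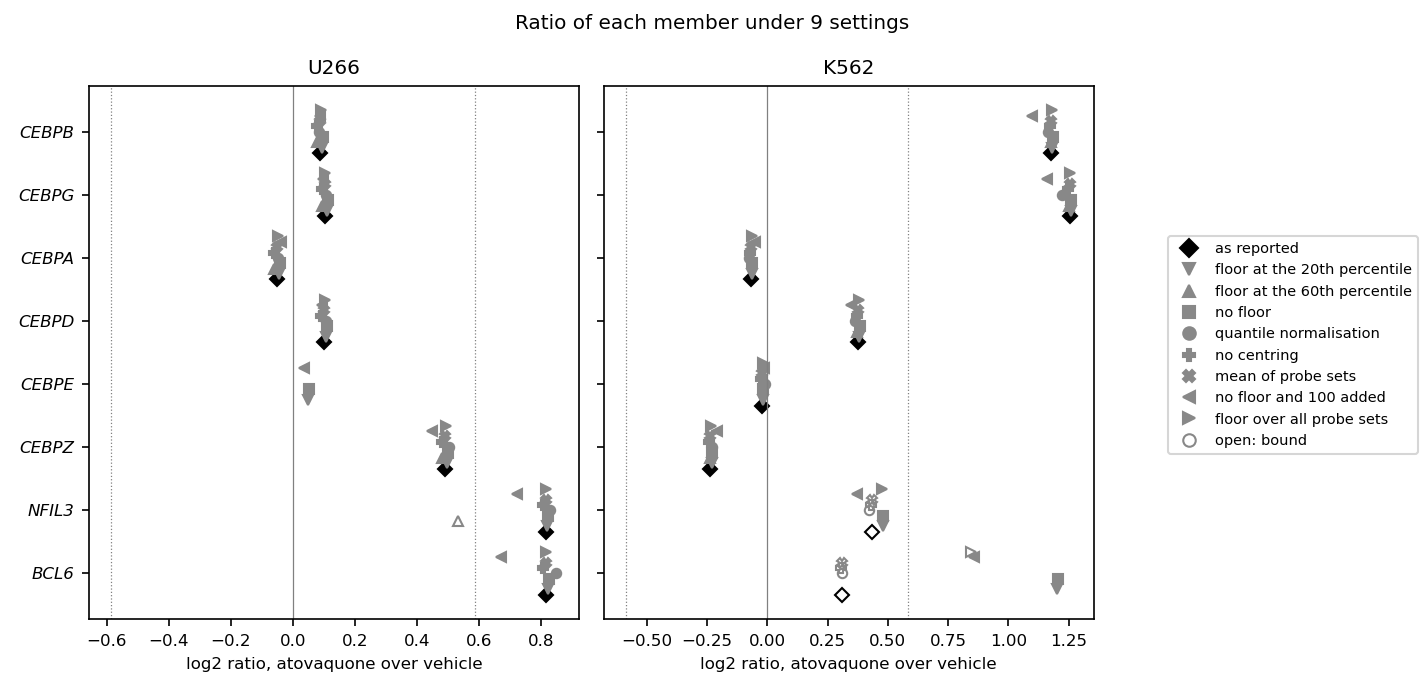
Log2 ratio of atovaquone to vehicle for each of the 8 genes as reported (black) and under 8 other settings (grey), with open symbols for bounds and dotted lines at 1.5-fold. CEBPB and CEBPG in K562 stay between 1.10 and 1.26, and the BCL6 value in K562 moves with the floor from a bound of 0.31 to 1.21 without one.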

How the data were processed

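Human U266 and K562 cells were profiled on 4 Affymetrix arrays, 1 per group. Biotinylated cRNA was made from Trizol and RNeasy purified RNA, per the labels' protocols. The deposited values are the authors' processed intensity per probe set on a linear scale, with a lowest value of exactly 1. Not given in the sources used here are the software, background correction and normalisation, and whether arrays were normalised to each other is unknown. Array medians were 340.3, 339, 319 and 314 for U266 atovaquone, U266 vehicle, K562 atovaquone and K562 vehicle.

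Of 33252 probe sets, 19460 had 1 symbol, 1754 several and 12038 were unlisted. A gene took its brightest probe set by mean log2 intensity. Values were floored at the 40th percentile of annotated probe sets, and log2 ratios were centred on the median of measured probe sets (shifts of −0.0096 in U266, −0.0048 in K562 and −0.02 between vehicle arrays). With 1 array per group there was no test, and genes were counted at 1.5-fold and 2-fold. Precision is limited by the number of arrays. The arithmetic was tested on simulated data.

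Named genes were the 8 members, up to 4 measured genes per list and line with the largest ratio, of which the text names some, and the 3 nearest profiles. Genes named beside these (neighbours in the genome, list members such as TEF, PCBP2 or STAT3, and bounds) were picked with values in view. The members and lists were chosen with earlier results of these data known. Alternatives changed the floor, normalisation, centring, probe set rule or offset. Python 3.11.15, pandas 2.3.3 and numpy 2.4.6 were used.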

Additional observations from a re-analysis of the deposited data

Results flagged for a closer look

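Some genes had ratios of opposite sign in the lines, each beyond the spread between 2 probe sets of a gene. None of these differences was tested, since each line has 1 array per group, and dose and time differ too. That spread is smaller than the SD of log2 ratios over all measured genes, 0.18 in U266 and 0.23 in K562. Only the members and the named list genes were screened, so no share over all genes is given. CEBPZ had log2 ratios of 0.49 in U266 and −0.24 in K562. Among partners and targets, FOSL2 had 1.79 and −0.28, CSF3 had 1.74 and −0.22, and TRIB1 had 0.77 and −0.28, again in U266 and K562. The other way round were ATF5 with −0.18 in U266 and 0.53 in K562, RUNX1, a partner of C/EBP in myeloid cells, with −0.15 and 0.53, and CDKN1A, a BCL6 target, with −0.20 and 0.22.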

How the results depend on the processing

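No paired analysis was possible because each group has 1 array, and no replicate could be left out. Of 48 counts of members under 8 alternatives, 40 stayed within 1.5 times the reported count. With the floor at the 60th percentile, 0 members were at least 1.5-fold higher in U266, against 2 as reported, because fewer genes then stay above the floor, and between vehicle arrays 1 was higher and 0 lower in U266. With the floor at the 20th percentile 4 were higher and 2 lower in U266 vehicle than in K562 vehicle, against 2 and 1 as reported. The same counts, 4 and 2, came with no floor, and 4 were higher with no floor and 100 added to each intensity. Of 175 values of single members under alternatives, 163 moved by less than the spread between probe sets and 12 by more, and none of those at 1.5-fold or more changed sign. Quantile normalisation and no centring moved none of the counts of members. The mean of probe sets could not move any member value, since each member has 1 probe set. Its unchanged results are included in the 48 counts and 175 values. Signal near the floor limits BCL6, NFIL3 and CEBPE most. Calls of list genes lost with the floor at the 60th percentile, or after quantile normalisation for NR1D2, are given with their lists, except FOSL2 and JUN. With that floor FOSL2 and JUN in U266 had only lower bounds, of 1.40 and 2.57 in log2.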
